A study of Xenopus laevis with 12 samples.

Results

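The motile cilia genes described here are 71 rows of a count table of 37018 genes, made by sequencing RNA from the entire heads of tadpoles of the African clawed frog, Xenopus laevis. They were chosen by name alone: every gene whose symbol begins with dnah, dnai, dnaaf, cfap, rsph, drc or odad followed by a digit, plus foxj1 and mcidas, with both homeologs where both were listed. Homeologs, marked .L and .S, are the paired copies left by the genome duplication of this species. The 71 rows carry 62 symbols, of which 9 were present as both homeologs, and 53 rows are .L copies and 18 are .S copies. By role they comprise 4 regulators, 9 outer arm and docking genes, 10 inner arm genes, 11 assembly factors, 6 radial spoke genes, 2 genes of the nexin-dynein regulatory complex and 29 other cilia and flagella associated protein (CFAP) genes. The foxj1.2 homeologs, a neighbouring paralog under another symbol, were not taken as members.

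A motile cilium beats because dynein arms slide the microtubule doublets of its core, the axoneme, against each other. Outer arms drive the beat and inner arms shape it, radial spokes and the nexin-dynein regulatory complex pass signals between the central pair and the dyneins, and assembly factors build the arms in the cytoplasm before they enter the cilium. Foxj1 is the forkhead transcription factor that switches on genes of motile cilia, and mcidas (multicilin) is a coregulator that acts upstream of it to start the multiciliated cell programme. In Xenopus larvae multiciliated cells are best known from the skin, and motile cilia also line the nasal cavities and the brain ventricles, so a whole head holds several ciliated epithelia.

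The 12 libraries formed 4 groups of 3. The treated heads came from embryos kept in 90 µM thioridazine, a phenothiazine antipsychotic that blocks dopamine receptors, at 18 °C from Nieuwkoop and Faber (NF) stage 14 to stage 26, and then raised at 14 °C to NF stage 45 or 47. Controls were wild-type embryos kept at the same temperatures, with no vehicle named in the labels, and collected at the same stages. The treated tadpoles were chosen for malformed faces, so they are not a sample of every exposed embryo, and the exposure had ended long before the heads were taken. The libraries are labelled as biological replicates, but the sources used here do not say whether they came from separate clutches or how many heads each held, so the tests below weigh differences against the spread among these libraries, which may be technical.

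Libraries held 11998636 to 16933777 counts, and the members drew 0.0611 to 0.0734% of them, 7522 to 11700 counts a library. Levels below are CPM, a gene's share of all counts on a fixed scale, relative to the library size adjusted by edgeR, and they are not divided by transcript length, so they are not compared between genes. Of the 71 members 70 passed the filter on low counts. The remaining one, odad3.S, a copy of an outer arm docking gene, had 0 to 9 counts in each library and was not tested. Markers of photoreceptors, skeletal muscle, epidermis and olfactory epithelium were present in every group, as a whole head should show, but the summed level of 25 liver transcripts ran from 47.0 to 2587 CPM between libraries. In bulk tissue, fewer cells of a type and less RNA per cell cannot be told apart.

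Summed over members, the level of motile cilia genes overlapped between treated and control heads at both stages. It was 585, 764 and 624 CPM in treated heads at stage 45 (657 ± 93.9, SD, n = 3), against 578, 674 and 641 CPM in control heads (631 ± 48.6, n = 3). At stage 47 it was 637, 754 and 715 CPM in treated heads (702 ± 59.9, n = 3), against 658, 691 and 664 CPM in control heads (671 ± 17.3, n = 3). The treated groups had the wider spread, with replicate 2 highest in all 4 groups.

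Of all members, a copy of mcidas had the smallest unadjusted p in each treatment contrast. The .L copy of mcidas (gene 108718385) had 3.73, 4.39 and 4.12 CPM in treated heads at stage 45, against 2.38, 3.08 and 2.60 CPM in control heads. At stage 47 it had 5.20, 4.62 and 4.75 CPM in treated heads, against 5.82, 4.07 and 6.96 CPM in control heads. The groups were thus apart at stage 45, with every treated library above every control library, and overlapped at stage 47. The log2 difference, thioridazine over control, was 0.60 at stage 45 (SE 0.23, 95% interval 0.12 to 1.09, adjusted p = 0.764) and -0.21 at stage 47 (SE 0.22, interval -0.67 to 0.25, adjusted p = 1), so neither passed the test.

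The .S copy of mcidas (gene 100158359) had 3.37, 3.62 and 4.30 CPM in treated heads at stage 45, against 2.38, 3.33 and 2.49 CPM in control heads. At stage 47 it had 3.71, 2.85 and 2.80 CPM in treated heads, against 4.57, 3.78 and 4.82 CPM in control heads. Treated libraries of this copy lay wholly above the controls at stage 45 and wholly below them at stage 47. Its log2 difference was 0.47 at stage 45 (SE 0.23, adjusted p = 0.962) and -0.48 at stage 47 (SE 0.23, adjusted p = 1). The treatment difference at stage 47 minus that at stage 45 was -0.81 for mcidas.L (SE 0.31, unadjusted p = 0.021) and -0.95 for mcidas.S (SE 0.32, unadjusted p = 0.00954). Both homeologs had the same sign, yet both adjusted p-values in edgeR were 1, so the stages were not shown to differ. These are low counts, 31 to 117 a library for mcidas.L and 31 to 81 for mcidas.S.

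**Figure D1:**
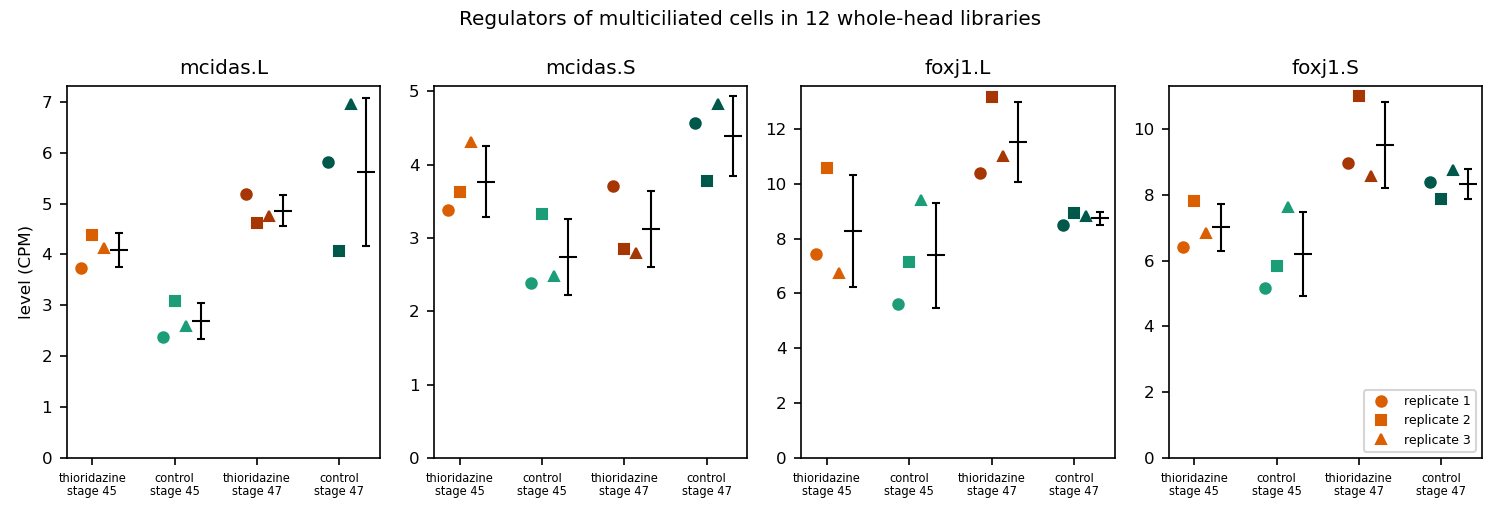
Level of mcidas.L, mcidas.S, foxj1.L and foxj1.S in each of the 12 libraries (y axis, CPM, starting at 0), by group; symbols are replicate numbers, and the black mark beside them is the mean ± SD of 3 libraries. Mcidas.L averaged 4.08 CPM in treated heads and 2.69 CPM in controls at stage 45, and 4.85 CPM in treated heads and 5.62 CPM in controls at stage 47.

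Foxj1 was ordered otherwise. Its .L copy (gene 399038) had 7.45, 10.6 and 6.76 CPM in treated heads at stage 45, against 5.62, 7.16 and 9.42 CPM in control heads. At stage 47 foxj1.L had 10.4, 13.2 and 11.02 CPM in treated heads, against 8.48, 8.92 and 8.81 CPM in control heads. Every treated library was above every control library at stage 47 only, with a log2 difference of 0.40 (SE 0.20, interval -0.04 to 0.83, adjusted p = 1). The .S copy (gene 399039) averaged 7.01 ± 0.721 CPM in treated heads and 6.20 ± 1.28 CPM in controls at stage 45, and 9.51 ± 1.30 CPM in treated heads and 8.33 ± 0.451 CPM in controls at stage 47 (SD, n = 3 each), and its groups overlapped at both stages.

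No motile cilia gene passed the test for thioridazine against control at either stage. At stage 45, 0 of 70 members were called at an adjusted p under 0.05, where the share called among all 27050 genes tested was 0%. In edgeR's quasi-likelihood test mcidas.L alone had an unadjusted p under 0.05 (0.0185), whereas 5.33% of all genes had one. DESeq2 called 0 members, beside 0.322% of all genes. At stage 47, 0 of 70 were called in edgeR, against a background of 0.0739% (20 genes, all higher in treated heads). There mcidas.S alone had an unadjusted p under 0.05 (0.0485), where 3.52% of all genes did, and DESeq2 again called 0 members, beside 0.255% of all genes. With the replicate number as a block within stage, the calls among all genes increased to 268 at stage 45 (0.991%) and 171 at stage 47 (0.632%), and 0 of them were members in either case. A block over both stages gave 16 calls at stage 45 (0.0591%) and 51 at stage 47 (0.189%), again with 0 members.

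The 95% intervals give the range of differences that the fit with group alone, without the replicate block, leaves for each member. The log2 differences of members ran between -0.63 (dnaaf9.S) and 0.60 (mcidas.L) at stage 45, and between -0.48 (mcidas.S) and 0.49 (dnah14.L) at stage 47. The 95% interval lay wholly within a 2-fold change for 65 of 70 members at stage 45 and for 68 at stage 47, and within a 1.5-fold change for 45 and 40. In that fit a change beyond 2-fold lay outside the interval for nearly all members, while for many members the interval still held a change of 1.5-fold. Intervals with the block were not computed. The estimate itself was under 0.25 on the log2 scale, in either direction, for 59 members at stage 45 (84.3%, against 77.7% of all genes) and 63 at stage 47 (90%, against 80.5%).

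**Figure D2:**
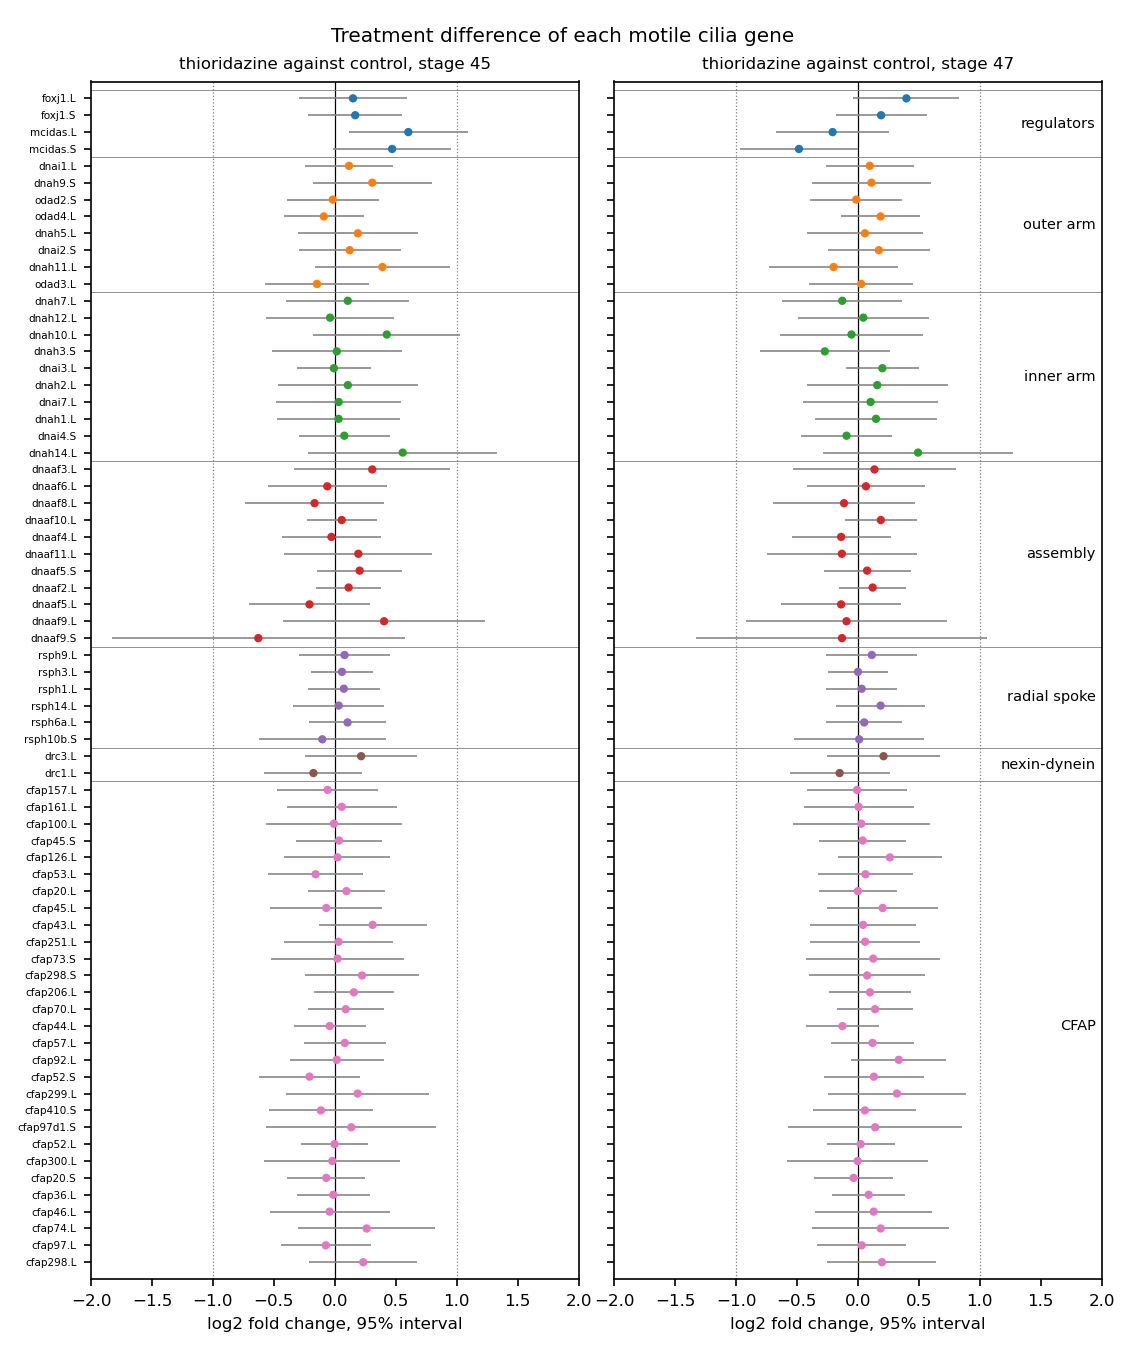
Log2 fold change of thioridazine over control for the 70 tested members, by role, at stage 45 (left) and stage 47 (right); points are edgeR estimates, bars 95% intervals from the fit without the replicate block, and dotted lines mark a 2-fold change. Most intervals span 0, and mcidas.L lies above 0 at stage 45 and mcidas.S just below it at stage 47.

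More members had an estimate above 0 than below it in treated heads. At stage 45 the log2 difference was above 0 for 45 of 70 members (64.3%, against 53.3% of all genes), with a median of 0.06 beside 0.01 over all genes. At stage 47 it was above 0 for 50 of 70 (71.4%, against 51%), with a median of 0.06 beside 0.00. At stage 45 the median rested on 1 library: without the treated replicate 2 the median was -0.07.

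Markers of other tissues had their own directions in the same contrasts, though none passed the test (smallest adjusted p in edgeR 0.319 at stage 45 and 0.108 at stage 47). Skeletal muscle transcripts were lower in treated heads for 13 of 13 at both stages (medians -0.35 at stage 45 and -0.17 at stage 47). Their summed level overlapped between the groups. At stage 45 it was 4570 to 5776 CPM in treated heads and 5639 to 8838 CPM in controls. At stage 47 it was 5047 to 6144 CPM in treated heads and 5565 to 7192 CPM in controls. Epidermal transcripts were higher for 8 of 9 at stage 45 and lower for 6 of 9 at stage 47, and photoreceptor transcripts were lower for 12 of 15 at stage 45 and higher for 12 of 15 at stage 47. Liver transcripts were higher for 23 of 25 at stage 45 and lower for 25 of 25 at stage 47. At stage 45 their summed level was 1261, 744 and 47.0 CPM in treated heads and 51.1, 593 and 382 CPM in controls, so the groups overlapped. At stage 47 it was 78.1 to 1161 CPM in treated heads and 1361 to 2587 CPM in controls. Transcripts of a list share these libraries, so their counts are not independent. Ionocyte transcripts were lower for 10 and 11 of 12 and olfactory transcripts for 7 and 6 of 8. Goblet cell transcripts had no clear direction at stage 45, with 4 of 7 lower and a median of -0.002. Their summed level there averaged 1423 CPM in treated heads and 1077 CPM in controls. At stage 47, 5 of 7 were lower (median -0.12). Transcripts of the ependyma and choroid plexus were higher for 5 and 6 of 8 (median 0.27 at both stages). Those of small secretory cells were higher for 3 of 4 at both stages (medians 0.26 and 0.11). Their part in the members' values was not tested.

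The share of members that separated the groups was near that of all genes or below it. Treated libraries stood wholly above the controls for 2 members at stage 45, both copies of mcidas (2.86%, where 4.19% of all genes did so), and wholly below them for 0 (background 5.36%). At stage 47 they stood above for cfap92.L, dnai3.L and foxj1.L (4.29%, background 4.78%) and below for dnah11.L and mcidas.S (2.86%, background 4.82%).

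Among the outer arm genes, the median log2 difference was 0.12 at stage 45 and 0.08 at stage 47, and the summed level was 103 ± 22.3 CPM in treated heads and 96.2 ± 4.97 CPM in controls at stage 45. The intermediate chain gene dnai1.L (gene 444304) had 16.9, 26.3 and 20.3 CPM in treated heads at stage 45, against 15.7, 23.4 and 19.5 CPM in control heads. Its replicates ran in the same order in both groups, with replicate 2 highest, and its log2 difference was 0.12 (SE 0.17). The other intermediate chain, dnai2.S, had a log2 difference of 0.12 at stage 45 (SE 0.20) and 0.17 at stage 47 (SE 0.19). Dnah11.L, an outer arm heavy chain, had 2.81, 2.30 and 3.38 CPM in treated heads at stage 45, against 1.85, 1.66 and 2.89 CPM in control heads (log2 difference 0.39, SE 0.26). At stage 47 its sign turned, with 2.90, 3.36 and 3.48 CPM in treated heads against 4.07, 3.602 and 3.51 CPM in control heads (-0.20, SE 0.25). Odad4.L, which belongs to the complex that docks the outer arm, had a log2 difference of -0.09 at stage 45 (SE 0.15) and 0.19 at stage 47 (SE 0.15).

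Inner arm genes were the role with the largest spread between libraries of a group, with a median biological coefficient of variation of 0.196, against 0.164 over all members and 0.148 over all genes. Their summed level was 57.8, 88.6 and 57.3 CPM in treated heads at stage 45, against 57.9, 67.1 and 64.2 CPM in control heads, so the group mean (67.9 ± 17.9 CPM, n = 3) was carried by replicate 2. For dnah10.L, a heavy chain of the inner arm, that library had 11.8 CPM where the other treated libraries had 5.06 and 5.16 CPM, against 4.46, 5.74 and 6.13 CPM in control heads (log2 difference 0.43, SE 0.28). Dnah7.L, another inner arm heavy chain, had 8.29, 18.3 and 10.5 CPM in treated heads, against 9.38, 11.98 and 13.0 CPM in control heads (0.11, SE 0.24). Dnah14.L, a dynein heavy chain, had the same sign at both stages, 0.56 at stage 45 (SE 0.36) and 0.49 at stage 47 (SE 0.37), on levels of 1.08 to 3.50 CPM. Dnai3.L, an inner arm intermediate chain, had 9.72, 12.1 and 11.1 CPM in treated heads at stage 47, against 9.31, 9.57 and 9.70 CPM in control heads. Those groups touched without overlapping, and the log2 difference was 0.20 (SE 0.14).

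The remaining roles had median log2 differences between -0.09 and 0.08, while single genes lay farther out. Radial spoke genes had median log2 differences of 0.07 at stage 45 and 0.04 at stage 47, and rsph3.L, a spoke stalk gene, stood at 28.1 ± 0.783 CPM in treated heads and 28.1 ± 0.804 CPM in controls at stage 47. For this gene the 95% interval of the log2 difference was -0.25 to 0.25. Assembly factors had medians of 0.06 and -0.09, and dnaaf2.L, a chaperone cofactor in dynein arm assembly, had 0.11 (SE 0.13) and 0.12 (SE 0.13). At stage 45 they ran from -0.63 (dnaaf9.S, SE 0.56) to 0.40 (dnaaf9.L, SE 0.39). The nexin-dynein genes had opposite signs that held at both stages, with drc1.L at -0.18 and -0.15 and drc3.L at 0.22 and 0.21 (SE 0.19 to 0.22). CFAP genes had medians of 0.02 and 0.08. Cfap20.L, which encodes a protein of the junction between doublet tubules, had 0.10 and -0.00 (SE 0.15 at both), and cfap52.L, an inner protein of the doublet, had -0.00 and 0.02 (SE 0.13 at both). The farthest CFAP values were those of cfap43.L at stage 45 (0.31, SE 0.21), a gene needed to tether inner arm dyneins, and cfap92.L at stage 47 (0.33, SE 0.18).

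The treatment differences of the stages come from separate libraries. Across the 70 members they correlated with Pearson's r = 0.057 and had the same sign in 45 (64.3%). Across all genes r was 0.15 and 59.6% had the same sign. Genes are not independent replicates, so these are descriptions.

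**Figure D3:**
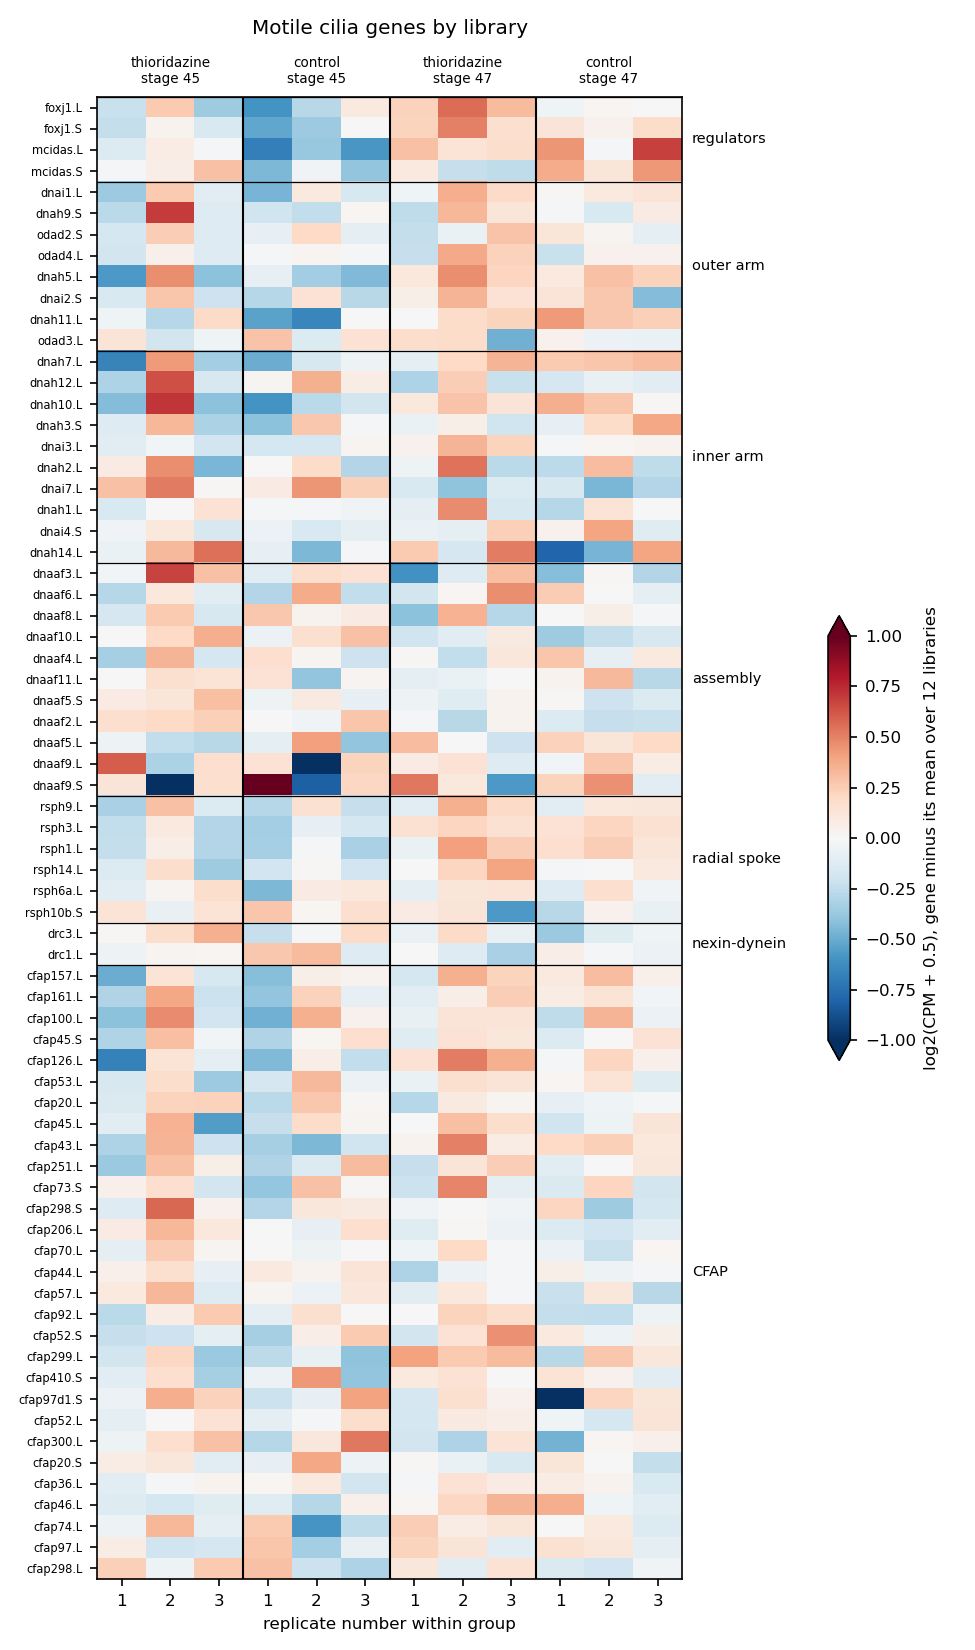
Each tested member in each library as log2(CPM + 0.5) minus its mean over the 12 libraries (colour, saturated beyond ±1), grouped by role and ordered within a role by how closely the gene followed the other members. Replicate 2 of treated stage 45 heads is red across most dynein arm and CFAP genes, and dnaaf9.L and dnaaf9.S run against it.

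Stage 47 was then set against stage 45. In treated heads neither copy of mcidas passed the test. The .L copy averaged 4.85 ± 0.304 CPM at stage 47 and 4.08 ± 0.334 CPM at stage 45 (log2 0.25, SE 0.22, adjusted p = 0.591). Every treated stage 47 library of this copy was above every treated stage 45 library. The .S copy averaged 3.12 ± 0.513 CPM at stage 47 and 3.77 ± 0.481 CPM at stage 45 (-0.27, SE 0.23, adjusted p = 0.581), and its stages overlapped. Of the 70 members 0 were called in edgeR between the stages of treated heads, against a background of 4.86%, and 8 had an unadjusted p under 0.05 (11.4%, background 19.6%), while DESeq2 called 0 members (background 8.95%). For 5 members DESeq2 gave no adjusted p in this contrast, and its background is over 22321 genes. Foxj1.S averaged 9.51 CPM at stage 47 and 7.01 CPM at stage 45 in treated heads (log2 0.44, SE 0.18, adjusted p = 0.177), with no overlap, and 8.33 CPM at stage 47 and 6.20 CPM at stage 45 in control heads (0.42, SE 0.18, adjusted p = 0.19), also with no overlap.

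In control heads 1 motile cilia gene changed between stages. Mcidas.L averaged 5.62 ± 1.45 CPM in control heads at stage 47 and 2.69 ± 0.355 CPM at stage 45 (SD, n = 3 each), a 2.09-fold rise (log2 1.06, SE 0.22, interval 0.58 to 1.54, adjusted p = 0.0155). Every stage 47 library was above every stage 45 library. It was the only one of 70 members called (1.43%), against 6.24% of all genes called in either direction, 3.03% higher and 3.21% lower. The call was a close one: the adjusted p was 0.0543 without control replicate 1 of stage 45, 0.0588 without its replicate 3, 0.063 without control replicate 1 of stage 47, 0.0507 without its replicate 3, and 0.0599 when only the control groups were fitted. The .S copy had 4.57, 3.78 and 4.82 CPM at stage 47 against 2.38, 3.33 and 2.49 CPM at stage 45, also with no overlap, and missed the threshold (log2 0.69, SE 0.23, adjusted p = 0.0882). With the homeologs summed, mcidas had a log2 difference of 0.88 (adjusted p = 0.0146). This contrast shares the stage 45 control libraries with the treatment contrast at stage 45, where mcidas was low in controls.

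Some markers of other tissues also differed between the same libraries of control heads. Over all genes, 3.03% were called higher and 3.21% lower at stage 47, and several lists below had 1 call or none. Summed over 25 liver transcripts, the level was 1361 to 2587 CPM in control heads at stage 47 and 51.1 to 593 CPM at stage 45, with 25 of 25 higher at stage 47 and 4 called. Alb.S, apoa4.L, apoa4.S, fga.L, fga.S and itih2.S were at 0 in 1 to 3 of the 12 libraries. Goblet cell transcripts of the skin pointed both ways, with 3 of 7 higher at stage 47, all called (agr2.L, agr2.S and spdef.S), 4 lower, none of them called, and a median log2 difference of -0.16. Epidermal transcripts were higher for 9 of 9 (median 0.33, dsp.S called), and those of small secretory cells for 4 of 4 (median 0.32, foxa1.S called). Photoreceptor transcripts were lower for 12 of 15 (median -0.19, crx.L and crx.S called), and skeletal muscle transcripts for 11 of 13 (median -0.19, atp2a1.L called). Those of the ependyma and choroid plexus were lower for 5 of 8 (slc4a5.L called) and of ionocytes for 9 of 12 (smallest adjusted p = 0.124), and olfactory transcripts were even, 4 higher and 4 lower (smallest adjusted p = 0.147). The part of any of these in the mcidas.L value was not tested.

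In control heads 12 members had an unadjusted p under 0.05 between stages (17.1%, background 21.3%), 9 of them higher and 3 lower at stage 47. DESeq2 called 2 members there, mcidas.L (adjusted p = 0.0015) and rsph3.L (adjusted p = 0.0424), against a background of 10.7%. It gave no adjusted p for 8 members in this contrast, and its background is over 21797 genes. Radial spoke genes had stage medians of 0.25 in treated and 0.16 in control heads, and the nexin-dynein genes had -0.17 in treated and -0.18 in control heads. Rsph3.L had 27.7, 29.1 and 27.7 CPM at stage 47 and 20.9, 26.8 and 20.2 CPM at stage 45 in treated heads, with no overlap (log2 0.32, SE 0.12, adjusted p = 0.144). In control heads rsph3.L had 27.6, 29.1 and 27.7 CPM at stage 47 and 19.6, 23.6 and 22.0 CPM at stage 45, again with no overlap (0.37, SE 0.12, adjusted p = 0.0745). Rsph1.L, a spoke head gene, stood at 37.1 ± 1.56 CPM at stage 47 and 28.1 ± 3.70 CPM at stage 45 in control heads (0.40, SE 0.14, adjusted p = 0.1).

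Among the dyneins, stage values pointed both ways. Dnah11.L averaged 3.25 ± 0.303 CPM at stage 47 and 2.83 ± 0.541 CPM at stage 45 in treated heads (log2 0.19, SE 0.25), and 3.73 ± 0.302 CPM at stage 47 and 2.13 ± 0.662 CPM at stage 45 in control heads (0.78, SE 0.25, adjusted p = 0.0836). Dnah5.L, the outer arm heavy chain best known from human ciliary dyskinesia, had 15.9, 20.5 and 17.1 CPM at stage 47 and 9.70, 20.5 and 10.9 CPM at stage 45 in treated heads (0.38, SE 0.23, adjusted p = 0.39). In control heads dnah5.L had 15.8, 18.1 and 17.3 CPM at stage 47 and 13.9, 11.5 and 10.7 CPM at stage 45 (0.51, SE 0.23, adjusted p = 0.213). Without replicate 2 of treated heads at stage 45, dnah5.L (log2 0.79, adjusted p = 0.0221) and rsph3.L (0.46, adjusted p = 0.0446) were called in treated heads. In the fit without that library, which all contrasts share, the calls between stages of control heads were 3, mcidas.L, rsph3.L (adjusted p = 0.0408) and dnah5.L (adjusted p = 0.0464). Over all genes the same fit called 748 between stages of treated heads and 1768 between stages of control heads. These calls are thus not particular to the members. Dnai7.L, linked to the inner arm, lay the other way, with 2.09, 1.68 and 2.12 CPM at stage 47 and 3.02, 3.62 and 2.40 CPM at stage 45 in treated heads (-0.61, SE 0.25, adjusted p = 0.188). Its control libraries also lay wholly lower at stage 47 (-0.68, SE 0.25, adjusted p = 0.123).

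Assembly factors had negative stage medians, -0.19 in treated and -0.10 in control heads, where the outer arm genes had 0.20 in treated and 0.13 in control heads. Dnaaf10.L, part of a chaperone complex for dyneins, had 13.7, 14.9 and 15.8 CPM at stage 47 and 17, 19.8 and 21.8 CPM at stage 45 in control heads (log2 -0.40, SE 0.14, adjusted p = 0.0987). Dnaaf2.L averaged 14.5 ± 1.69 CPM at stage 47 and 17.8 ± 0.454 CPM at stage 45 in treated heads (-0.29, SE 0.13), and 13.4 ± 0.516 CPM at stage 47 and 16.4 ± 2.04 CPM at stage 45 in control heads (-0.30, SE 0.13). Both genes were wholly lower at stage 47 in controls, dnaaf2.L also in treated heads, and none of these passed the test. Among CFAP genes, cfap126.L, a protein that helps to position basal bodies in mice, averaged 14.7 ± 1.93 CPM at stage 47 and 10.1 ± 2.87 CPM at stage 45 in treated heads (0.54, SE 0.20, adjusted p = 0.148).

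Stage differences were above 0 for 42 of 70 members in treated heads (60%, against 49.2% of all genes), with a median of 0.06, and for 38 in control heads (54.3%, against 48.6%), with a median of 0.01. Treated stage 47 libraries lay wholly above stage 45 for 7 members (10%, background 11.4%) and wholly below for 4 (5.71%, background 13.8%). In control heads these numbers were 10 above (14.3%, background 11.7%) and 5 below (7.14%, background 13.3%). The stage differences of treated and control heads, which also come from separate libraries, correlated across members with r = 0.611 and had the same sign in 54 (77.1%), beside 0.591 and 76.4% over all genes. The treatment difference at stage 47 minus that at stage 45 was called for 0 of 70 members (0% of all genes in edgeR) and was above 0 for 42 (60%, against 49.1%). Both mcidas copies had an unadjusted p under 0.05 there (2.86%, background 2.13%), and DESeq2 called 0 members, beside 0.0148% of all genes.

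**Figure D4:**
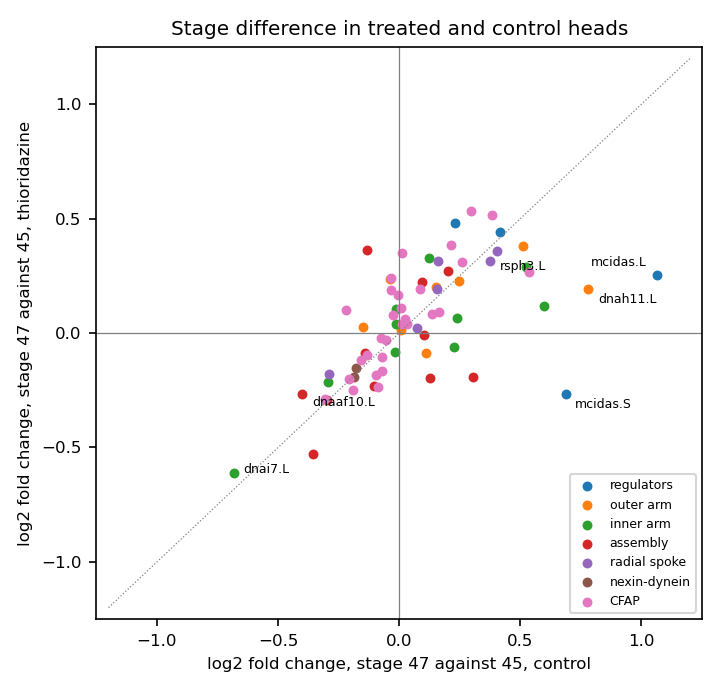
Log2 fold change of stage 47 over stage 45 for each of the 70 tested members in treated heads (y axis) and control heads (x axis), coloured by role; the dotted line marks equal values. Most members lie near the line (r = 0.611), and mcidas.L (0.25 in treated, 1.06 in control heads) and mcidas.S (-0.27 in treated, 0.69 in control heads) lie below it.

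Part of the spread between libraries of a group was shared by many of the members. In treated heads at stage 45, replicate 2 held the highest value of 47 of 70 members (67.1%, against 36.8% of all genes), and in treated heads at stage 47 replicate 2 held that of 39 (55.7%, against 32.1%). Replicate 2 of the controls held the highest value of 33 members at stage 45 (47.1%, against 40.5%) and of 27 at stage 47 (38.6%, against 34.1%). Replicate 1 held the lowest value for 42 members in treated and 38 in control heads at stage 45, and for 43 in treated and 29 in control heads at stage 47. For lowest values the share over all genes was not computed, so whether these counts are particular to the members cannot be told. The median member lay 0.19 above its group mean in replicate 2 of treated heads at stage 45 and at -0.11 from it in replicate 1, on the scale of log2(CPM + 0.5). In control heads at stage 47 these medians stayed between -0.02 and 0.03.

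For each member, its deviations from the group means over the 12 libraries were correlated with the median deviation of the other members. The median r was 0.54, and 37 of 70 members had an r above 0.5 (52.9%), where 21.4% of all genes did, or 16.8% of those in the members' range of levels. These points share library, depth and scaling and are given as a description. The roles differed: the median r was 0.79 for radial spoke genes, 0.68 for outer arm genes, 0.56 for inner arm genes, 0.55 for CFAP genes, 0.34 for the regulators, 0.11 for the nexin-dynein genes and -0.08 for assembly factors. Foxj1.L had an r of 0.78 and foxj1.S of 0.56, while mcidas.L had 0.12 and mcidas.S -0.13. The closest followers, named after their values were seen, were dnai1.L (0.94), cfap157.L (0.92), rsph9.L (0.91), dnah7.L (0.91) and dnah12.L (0.90).

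Dnaaf9.S, dnaaf9.L, cfap298.L and cfap97.L ran against the other members, with r of -0.84, -0.59, -0.77 and -0.65. Dnaaf9 encodes the factor known in Tetrahymena as Shulin, which packages outer arm dyneins for delivery to the cilium. Its .S copy had 2.39, 0.557 and 2.46 CPM in treated heads at stage 45, against 4.85, 0.999 and 2.54 CPM in control heads, so replicate 2 was lowest in both groups. Its .L copy had 4.01, 1.88 and 2.83 CPM in treated heads, against 2.77, 0.749 and 2.95 CPM in control heads, with the same library lowest in each group. At stage 47 replicate 2 was not the lowest for either copy in either group. The widest ranges over the 12 libraries were those of dnaaf9.S (8.69-fold between the highest and lowest), dnaaf9.L (5.35-fold) and cfap97d1.S (3.34-fold), and the narrowest those of cfap36.L (1.27-fold), cfap52.L (1.28-fold) and cfap44.L (1.41-fold).

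Among homeologs, 8 pairs had both copies tested, and their deviations correlated over the 12 libraries with an r of 0.867 for foxj1, 0.81 for dnaaf9, 0.745 for cfap52, 0.74 for mcidas, 0.666 for cfap45, 0.238 for cfap20, 0.225 for dnaaf5 and -0.637 for cfap298. Copies of 1 gene can share reads, and how reads that map to both were handled is not given in the sources used here. Treatment differences had the same sign in 4 of 8 pairs at stage 45 and in 7 of 8 at stage 47, and stage differences in 4 of 8 in either kind of head. Cfap298, needed for outer arm assembly, thus had a copy that followed the members and one that did not.

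Other cilia genes were set beside the members. A list of 110 tested axoneme genes outside the naming rule had 0 called for treatment at either stage, with median log2 differences of 0.02 at stage 45 and 0.06 at stage 47. Its members followed the median deviation of the motile cilia genes closely (median r 0.63, 60.9% above 0.5), and 1 of them, dydc1.L, was called higher at stage 47 in controls (log2 0.52, adjusted p = 0.0233). Genes of intraflagellar transport and the BBSome, which immotile cilia use too, had 0 of 53 called for treatment, a median r of 0.18, and medians of -0.03 and 0.00. Of these, kif3b.S, a kinesin motor subunit, was lower at stage 47 in treated (-0.56, adjusted p = 0.0182) and control heads (-0.57, adjusted p = 0.0144), and mkks.L, a chaperone for the BBSome, in treated heads (-0.58, adjusted p = 0.0147).

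The genes around mcidas in the multiciliated cell programme had 0 of 44 called for treatment, with medians of 0.12 at stage 45 and 0.04 at stage 47, and a median r of 0.05. Their treatment difference was above 0 for 35 of 44 at stage 45, where 53.3% of all genes were. At stage 47 it was above 0 for 26 of 44, where 51% of all genes were. That list includes genes that other cells of a head use too, such as notch1.L and dll1.S, so its values do not describe multiciliated cells alone. In control heads 30 of the 44 were lower at stage 47 and 14 higher (median -0.07), where 48.6% of all genes were higher. Of the 44, 2 were called, both lower, where 6.24% of all genes were called in either direction. They were e2f4.S (-0.55, adjusted p = 0.0172) and e2f5.L (-0.42, adjusted p = 0.0333), which encode transcription factors that multicilin binds. Their relation to the mcidas.L value was not tested. In treated heads the stage difference was -0.41 for e2f4.S (adjusted p = 0.0685) and 0.03 for e2f5.L (adjusted p = 0.936). The share of calls over all genes in each of these contrasts is the one given above. The plot of medians by library shows how these lists moved within groups.

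Markers of some other tissues also moved with the members between libraries of a group. The list called epidermal includes dsp.L, dsp.S, ppl.L and evpl.L, whose expression is not confined to skin. The median r with the members' median deviation was 0.71 for 9 epidermal transcripts, 0.50 for 13 skeletal muscle transcripts and 0.49 for 8 olfactory transcripts, where other lists lay near 0 or below. It was 0.17 for 4 small secretory cell, 0.15 for 25 liver, -0.03 for 8 ependyma and choroid plexus, -0.09 for 12 ionocyte, -0.15 for 7 goblet cell and -0.27 for 15 photoreceptor transcripts. Epidermal transcripts summed to 1263 to 1609 CPM in treated heads and 1086 to 1373 CPM in controls at stage 45, and to 1466 to 1625 CPM in treated heads and 1453 to 1719 CPM in controls at stage 47. Olfactory transcripts summed to 77.6 to 96.5 CPM in treated heads and 89.8 to 101.6 CPM in controls at stage 45, and to 83.4 to 93.9 CPM in treated heads and 88.0 to 97.1 CPM in controls at stage 47. The part of either in the members' values was not tested.

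**Figure D5:**
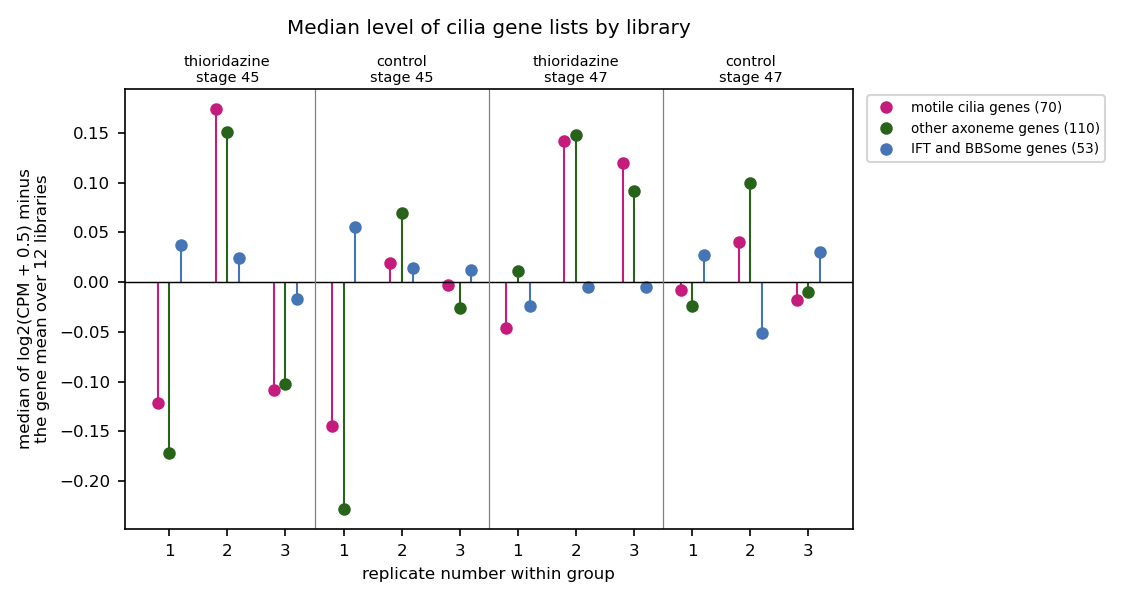
Median over 70 motile cilia genes, 110 other axoneme genes and 53 intraflagellar transport and BBSome genes of log2(CPM + 0.5) minus the gene mean over 12 libraries (y axis), by library and group. The motile cilia and other axoneme medians are both high in replicate 2 of treated stage 45 heads and low in replicate 1 of both stage 45 groups.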

How the data were processed

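RNA of 12 whole-head samples was sequenced as single-end 100 bp reads from unstranded libraries, per the labels' protocols. The deposited values are raw read counts per gene, made by the authors with Trimmomatic, HISAT2 and HTSeq per the submitters' processing notes, which also name DESeq2. Tool versions, genome build, annotation and the treatment of multi-mapping reads: not given in the sources used here. Without strand, reads of overlapping or antisense genes cannot be told apart. Names came from the RefSeq gene table of Xenopus_laevis_v10.1, which matched 33597 of 37018 identifiers. That table served for names alone.

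The fit used edgeR 4.0.16 under R 4.3.3 (robust quasi-likelihood fit, TMM scaling, filterByExpr) on 27050 genes and all 12 libraries, with group as the only term and 8 residual degrees of freedom. Benjamini-Hochberg adjustment ran over all genes tested, and an adjusted p under 0.05 is a call. CPM and log2 fold changes were computed here, and standard errors and 95% intervals came from the fitted weights and dispersions. Scripts were tested on simulated data. Alternatives were upper-quartile and RLE scaling, DESeq2 1.42.0, other filters, only the groups compared, summed homeologs, replicate blocks and leaving out each library.

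Replicates were never identical: their chi-square averaged 6.32 to 15.5 per gene, where counting error alone gives 1. Deviations of same-numbered treated and control libraries correlated at 0.386, 0.606 and 0.344 at stage 45 and at 0.166, 0.227 and 0.471 at stage 47, all above 0.1, so the numbers were taken to pair these groups. At stage 47 control replicate 2 and treated replicate 1, of unlike number, also passed 0.1 (0.108). Differences, standard errors, intervals and p-values of single genes come from the fit without this pairing, unless a block is named. Between stages they did not all pass 0.1.

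The genes named were drawn mainly from the regulators and, in each role, the 2 of highest mean level and the member of smallest p in each contrast. Every member called and the 3 widest and 3 narrowest ranges are named, plus members with no overlap between treated and control heads. Members with no overlap between stages are named only in part. Those with the highest and lowest r were named after their values were seen. Members and lists were chosen with earlier results of these data known.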

Additional observations from a re-analysis of the deposited data

How the results depend on the processing

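No member named by the rule above, and called in the main fit or in an alternative, changed direction between them. A called gene has an estimate well away from 0, so its direction could hardly turn. Members not called could change sign. At stage 45 the treatment difference of foxj1.L was 0.15 on the log2 scale in the main fit. It was -0.08 without treated replicate 2 of that stage and -0.02 without control replicate 1. Other changes of sign were not counted. Of the summaries (calls over all genes, calls among members, medians and sums) under the alternatives, 286 kept within the spread or 1.5 times of the value given, and 44 moved. For medians that spread was 0.1087 on the log2 scale, wider than any member median in the main fit. A median could thus change sign and still count as kept. Counts of calls that stayed at 0 are also among the 286, so the tally does not show that the medians are stable. Calls among members stayed at 0 for both treatment contrasts and for the difference between them under every alternative run. For stage 47 against 45 in treated heads the replicate block over both stages called 2 (rsph1.L and cfap126.L), and leaving out a library gave 0 to 2. In controls, 0 members were called with only the groups compared, 2 with DESeq2, 2 with upper-quartile scaling (mcidas.L and rsph3.L in both), 5 with the replicate block over both stages (mcidas.L, rsph3.L, rsph1.L, dnah11.L and, lower, dnaaf10.L), and 0 to 3 with a library left out. The numbers do not pair the stages in all replicates, so that block is not a paired test of stage. A block within stage was not run for stage contrasts, where its terms absorb the stage difference.

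The median member log2 fold change ranged from -0.0709 to 0.1398 for thioridazine at stage 45 and from -0.0121 to 0.1749 for stage in treated heads when a library was left out. Over all genes, calls at stage 45 were 77 with DESeq2, 16 with the replicate block over both stages, 268 with the block within stage and 0 to 9 with a library left out. At stage 47 they were 69, 51, 171 and 0 to 24. For stage in treated heads they were 1998 with DESeq2, 2704 with the block over both stages (10%) and 392 to 1738 with a library left out. In controls they were 1689 in the main fit, 2343 with DESeq2 and 1781 with upper-quartile scaling. There were 660 in controls with only the groups compared, 3068 with the block over both stages (11.3%) and 429 to 1768 with a library left out. For the difference between treatment effects DESeq2 called 4 and the block within stage 27 (0.0998%). The cause was not tested, except that a library left out means fewer samples.

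Depth limits the members of few counts, such as dnaaf9.S (8 to 63 counts a library) and dnah14.L (13 to 57), and odad3.S was not tested. In the fit without the replicate block the median standard error was 0.21 at stage 45 and 0.20 at stage 47 on the log2 scale. At stage 45 the 1.52-fold difference of mcidas.L (log2 0.60, SE 0.23) was not called. Changes of that size could thus be missed in that fit. Larger ones could be missed too, as dnaaf9.S at stage 45 (log2 -0.63, SE 0.56) was not called either. At that stage the fit called 0 of 27050 genes, and the size above which a change would be called is not given here.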
